A study of Mus musculus with 8 samples.

Results

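Fragments of transfer RNAs (tRNAs) were described in small RNA from mouse testes, by the amino acid and codon in their annotation. Members were all sequences whose annotation began with tRNA- or with trna and a digit, at every length from 15 to 36 nt. They numbered 17911 of 6246223 distinct sequences in the list and carried 62 names, which were sorted into 50 codon groups and 21 amino acid groups.

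The labels name 8 libraries, 1 in each group. Testes of embryos 18.5 days post coitum came from mice heterozygous or homozygous for the tdrd1 knockout, and testes of mice 18 days post partum, 25 days post partum and 6 weeks old came from mice heterozygous or homozygous for the tdrd6 knockout. No wild-type library is among them, whole testes hold somatic as well as germ cells, and the labels do not give the allele, the strain or how many animals a library holds. The deposited list pools the libraries, holds no read number and ties no sequence to a library, so genotypes and ages were not compared. Each value below counts distinct sequences once, however often they were read. It measures how many variants of a fragment were seen and not how abundant an RNA was. The depth of the libraries is unknown, there are no replicates and no test was run. Intervals are exact 95% binomial intervals and cover counting error only.

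A tRNA carries its amino acid on a 3' terminal CCA and reads a codon with the anticodon in the middle of its cloverleaf. Its gene is transcribed with a 5' leader and a 3' trailer, which are cut off, and the CCA is then added by an enzyme. RNA polymerase III, which transcribes nuclear tRNA genes, starts from internal promoters named the A box and the B box and ends in a run of T. Cut tRNAs occur in many tissues, and fragments from the 5' side are known as a main class of small RNA in mature sperm.

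Most names give the codon and not the anticodon, with Y for C or T. The place of the anticodon was counted back at a fixed distance from the T loop, a loop near the 3' side. In 28 names at least 5 sequences spanned this place, 937 in all. The word made of T and the anticodon stood there in 778 of them, and the word made of T and the codon in 23. The anticodon word was the more frequent in 22 of these names. Neither word was found in 5 names of Leu and Ser, and tRNA-Arg-CGG had the codon word more often, with 23 against 17. The fixed distance misses the anticodon where more bases lie between the loops. For these 5 names the anticodon may thus lie elsewhere, which was not tested. The 3 names with trna and a digit give the anticodon and were joined to the codon groups.

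The commonest 5' ends of 9 of the 10 largest codon groups show where the fragments begin. A 5' end means the first 15 nt, and the longest sequence with that end is printed, 5' to 3' and with T for U. Capitals mark the A box, whose first base is position 8 of a tRNA.

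Glu-GAG: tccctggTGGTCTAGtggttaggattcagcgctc

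Lys-AAG: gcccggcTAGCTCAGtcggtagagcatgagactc

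Asp-GAY: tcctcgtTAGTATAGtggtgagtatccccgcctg

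Gly-GGA: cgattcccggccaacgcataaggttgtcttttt

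Gly-GGY: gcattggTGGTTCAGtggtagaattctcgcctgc

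Gln-CAG: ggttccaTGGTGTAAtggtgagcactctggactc

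Met-i: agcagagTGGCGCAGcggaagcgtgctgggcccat

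Lys-AAA: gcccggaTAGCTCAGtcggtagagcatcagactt

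Pro-CCA: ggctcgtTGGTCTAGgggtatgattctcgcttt

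The commonest end was position 1, the first base of the mature tRNA, in all of these but Gly-GGA. Its commonest end lay in the T loop, the loop near the 3' side, and the sequence shown runs past the end of the tRNA into a run of T. The 3' ends from these starts were spread over many lengths. In 6 of the groups, Glu-GAG, Lys-AAG, Asp-GAY, Gly-GGY, Met-i and Lys-AAA, the printed sequence was found shortened to each length from 34 down to 15 nt. In these groups the count of lengths from such an end could not be much higher, so it does not rank them. In all, 46 sequences began with the Glu-GAG end, 41 with the Asp-GAY end, 40 with the Lys-AAG end, 31 with each of the Gln-CAG and initiator Met-i ends, 30 with the Lys-AAA end and 27 with the Gly-GGY end. The Gly-GGA end had 29 and the Pro-CCA end 22.

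All 20 standard amino acids and selenocysteine were represented. Gly had the most sequences, 2029 or 11.3% (10.9 to 11.8) of all members, followed by Lys with 1554, Glu with 1534, Leu with 1507, Ala with 1303, Arg with 1216 and Val with 1055. Met had 984, Asp 966, Gln 954, Pro 815, Ser 734, Thr 623 and Ile 528. The fewest were found for His with 441, Asn with 423, Cys with 365, Tyr with 322, Trp with 213, Phe with 212 and selenocysteine with 133. When each 5' end was counted once, Ala and not Gly was the largest group.

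**Figure D1:**
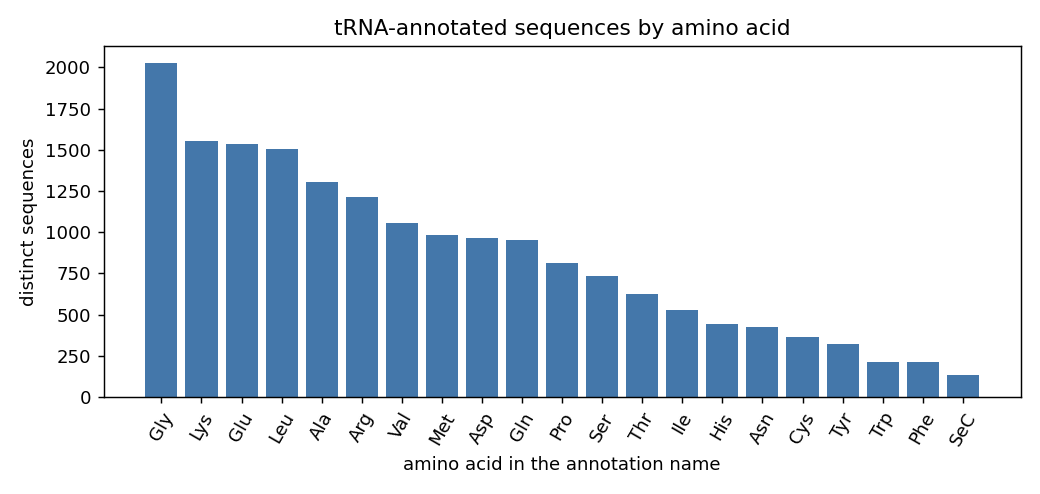
Distinct tRNA-annotated sequences (vertical axis) for each of the 21 amino acids named in the annotation (horizontal axis). Gly leads with 2029 and selenocysteine (SeC) is last with 133.

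Codon groups with more genes tended to have more sequences. Over the 45 groups whose codon could be paired with nuclear tRNA genes in the RefSeq table of GRCm38.p6, Spearman's rho between the number of sequences and the number of genes was 0.584. The groups share libraries and the points are not independent, so no p is given. Cys-TGY had 56 genes in the table and 365 sequences, against 12 genes and 1461 sequences for Glu-GAG and 24 genes and 1031 sequences for Lys-AAG. Lys-AAA had 523 sequences with 2 genes in the table. Its sequence printed above mapped to 6 genomic positions, so the gene numbers in the table may be incomplete, which was not tested.

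The piRNAs are germline small RNAs bound by PIWI proteins. Members were most often 19 nt, with 1306 sequences (7.29%), and from 18 to 27 nt each length held between 1069 and 1306 sequences. With map number 1, or with each 5' end counted once, the most frequent length was 26 nt. All other sequences of the list peaked at 27 nt with 14.7%, where members had 5.97%. Sequences of 19 to 23 nt formed 33.7% (33.0 to 34.4) of members and 13.9% of the others. Those of 24 to 33 nt, the size of piRNAs, formed 46.2% (45.5 to 46.9) and 78.3%. A further 3309 members (18.5%) were shorter than the labelled selection of 19 to 33 nt, against 7.53% of the others, and 293 (1.64%) were longer.

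**Figure D2:**
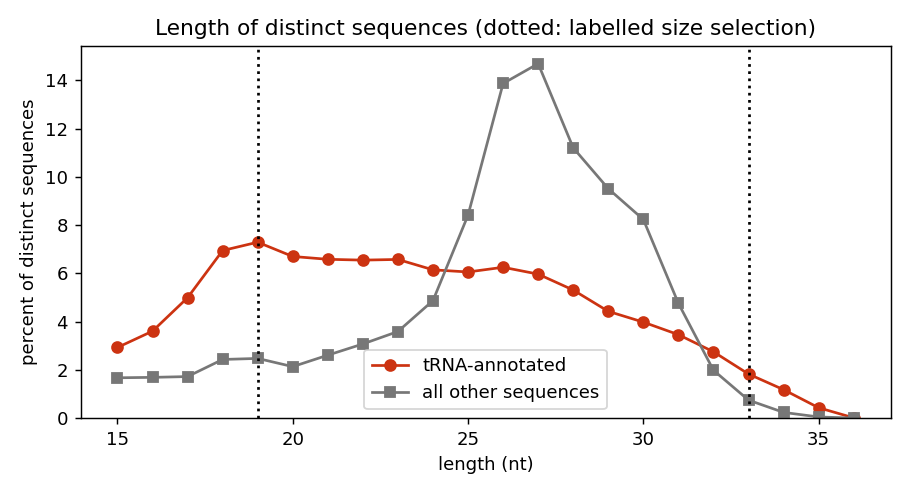
Percent of distinct sequences (vertical axis) at each length in nt (horizontal axis) for members and for all other sequences, with dotted lines at the labelled limits of 19 and 33 nt. Members are spread evenly from 18 to 27 nt, while the others peak at 27 nt with 14.7%.

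T, the usual first base of piRNAs, led by a small margin and was rarer than in the rest of the list. It was first in 30.1% (29.4 to 30.7) of members, G in 28.5%, C in 23.5% and A in 18.0%. Of all other sequences, 64.4% began with T. At 24 to 33 nt the shares were 31.6% (30.6 to 32.6) in members and 71.2% in the others. Only 36.9% (36.2 to 37.6) of members mapped to 1 position, against 77.6% of the others, and the median map number was 3.

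The position of a sequence in its tRNA was read from the A box. In its narrow form, TNGCNNAG, the motif was found in 2516 members (14.05%) and in 2.26% of the other sequences. A wider form, which was chosen after the data had been seen, has T, then A or G, then G, then C or T, then any 2 bases, then A, then A or G. It was found in 5884 members (32.9%) and 4.62% of the others, and on the reverse strand in 1.15% and 3.26%. Members as a whole thus held the box mainly in the sense of the tRNA. The reverse of the box, or of the T loop motif given below, was found in 295 members (1.65%), unevenly by name. It was most numerous under tRNA-Met-i, with 68 of 588 (11.6%), and tRNA-Ala-GCG, with 37 of 350 (10.6%). Next came tRNA-Gln-CAA_ with 32 of 71, tRNA-Arg-AGG with 32 of 403 (7.94%) and tRNA-Thr-ACG with 24 of 122 (19.7%). Whether these are antisense RNA of nuclear tRNA genes was not tested. The wide form finds nothing in His-CAY, so that group has no position from it.

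Position 1 was the most frequent start. Of the sequences with the narrow box, 622 (24.7%, 23.05 to 26.5) began there, and of those with the wide box 1408 (23.9%, 22.8 to 25.0). Each of positions 2 to 8 had between 384 and 518. When each 5' end was counted once, 8.87% (6.73 to 11.4) of narrow box sequences began at position 1. G, the usual first base of a tRNA, was first in 79.0% (76.8 to 81.1) of sequences from position 1, and T in 11.4%. Sequences from positions 2 to 8 had T in 34.2%, C in 28.8%, G in 25.3% and A in 11.8%.

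Sequences from position 1 covered the whole length range without a sharp peak. From 18 to 33 nt each length had between 57 and 98 of them, with the most at 31 nt. Those of 30 nt or more numbered 383, 27.2% (24.9 to 29.6). Among groups of at least 200 sequences, the share of wide box sequences that began at position 1 was highest in Trp-TGG, with 33 of 61, and Gln-CAA, with 28 of 61. It was lowest in Leu-CTG, with 21 of 169, and Met-i, with 32 of 212.

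Part of the positioned 5' ends lay outside the mature tRNA. By the wide box, 1227 sequences (20.9%, 19.8 to 21.9) began upstream of position 1 and are counted here as leader sequences. The most frequent of these starts was 4 bases upstream, with 267 sequences, followed by 1 base with 226 and 5 bases with 190, and no start lay more than 13 bases upstream. Of these sequences, 66.6% (63.9 to 69.2) mapped to 1 position, against 30.6% (28.2 to 33.1) from position 1 and 17.6% (16.3 to 19.0) from positions 2 to 8. Their median length was 27 nt, against 25 nt and 24 nt. A was first in 40.8% of them. A start was placed only if the sequence held the whole box, so starts upstream of position 1 needed longer sequences. At 15 nt there were 0 of them, against 23 from position 1. The lengths, and the shares that mapped to 1 position, are thus not compared like with like. Leader sequences were seen in all 35 groups of at least 200 sequences that had the box. Among these groups their share was highest in Asn-AAC, with 37 of 68 wide box sequences, and Ile-ATT, with 41 of 94, and lowest in Gln-CAA, with 2 of 61, and Met-i, with 20 of 212. The box can also match outside its place. The commonest Arg-CGA end lay at position 56 by the T loop, but 5 bases upstream of position 1 by a box match in its longest sequence. How many of the 1227 rest on such matches was not tested.

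The T loop gave the second set of 5' ends. The motif GTTCNANNC, which starts at position 53 and covers part of the B box, was found in 1623 members (9.06%) and 0.500% of the other sequences. Together with sequences that shared 15 nt with one of these under the same name, 5468 members (30.5%) were placed, so ends far from the loop are under-counted. The motif placed 0 of 588 Met-i sequences, 0 of 227 under the name tRNA-Ala-GCY and 9 of 336 in Leu-CTG. Ends in the T loop or past the tRNA could therefore hardly be seen there. Of the placed sequences, 614 (11.2%, 10.4 to 12.1) began at position 56 and another 187 at position 55, while position 57 had 96. Last bases peaked 2 positions before that start, with 663 sequences (12.1%, 11.3 to 13.0) at position 54 and 401 at position 55. First bases thus peaked just after last bases in the T loop. Around the place counted as the anticodon, 1244 sequences (22.8%) began at positions 33 to 38, with the most, 285, at position 36. Counted back from the T loop, these positions miss the anticodon in tRNAs with more bases between the loops.

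Examples from position 56 that end at position 73, the last base before CCA, are shown with their first 6 bases in capitals.

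Glu-GAG: CGATTCccggtcagggaa

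Lys-AAA: CAAGTCcctgttcgggcg

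Asn-AAC: CGAGCCcacccagggacg

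Arg-AGG: CGAGTCccatctgggtcg

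Each is 18 nt long. Glu-GAG had 67 sequences from position 56, Asn-AAC 30, Gly-GGA 29, Ala-GCG 28, and Asp-GAY and Arg-AGG 27 each. In 6 of the 36 groups with at least 200 sequences, position 56 was the commonest 5' end, namely Gly-GGA, Asn-AAC, Arg-AGG, Ile-ATT, Arg-CGG and Arg-CGY. Position 1 was the commonest in 26 groups. Of the other 4 groups, Met had it at position 28 and Thr-ACY at position 36. In Gln-CAA an antisense mitochondrial end and the position 1 end of the same mitochondrial tRNA had 15 sequences each. In His-CAY, which the box did not place, ends 1 base apart had 17 sequences each.

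**Figure D3:**
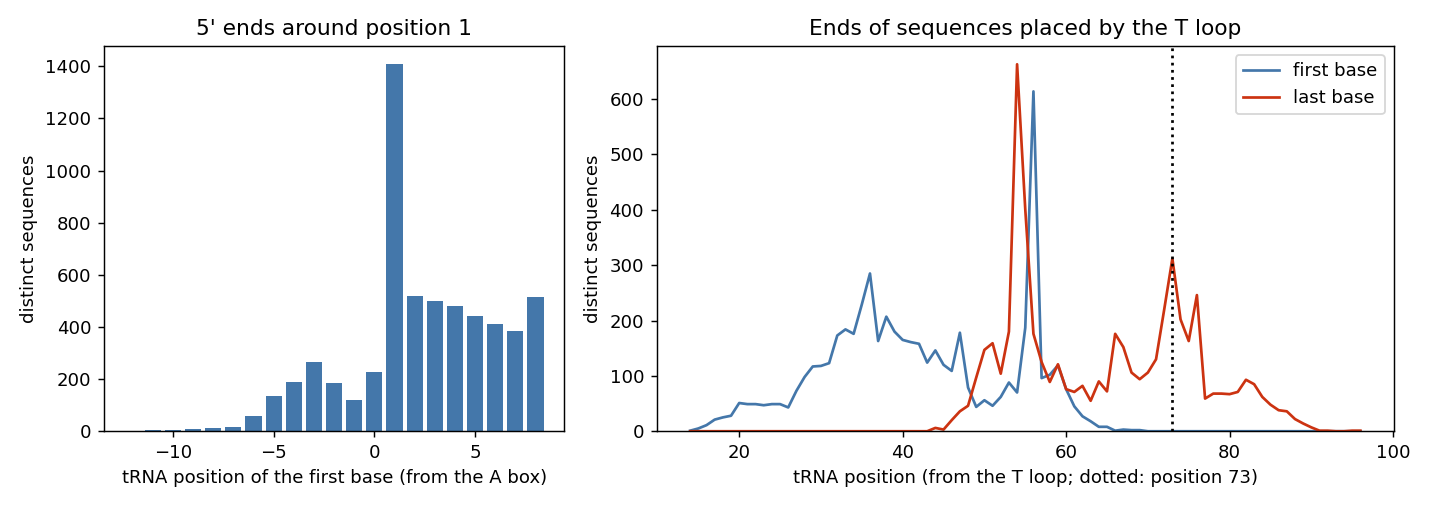
Left, distinct sequences (vertical axis) by the tRNA position of their first base from the wide A box, where 0 is the base just upstream of position 1. Right, first and last bases of sequences placed by the T loop, with a dotted line at position 73. Position 1 has 1408 sequences, position 56 has 614 first bases and position 54 has 663 last bases.

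Trailers were as plain as leaders. Of the sequences placed by the T loop, 312 ended at position 73 and 1353 (24.7%, 23.6 to 25.9) ran past it. Position 76, the end of the CCA, was reached by 988, and 119 of these (12.04%, 10.1 to 14.2) had CCA at positions 74 to 76. Of the 246 that ended at position 76, 91 (36.99%, 30.9 to 43.4) had it. The CCA is not encoded in mammalian tRNA genes, and every member had a map number of at least 1. Fragments with an added CCA may therefore be missing from the list. The shares with CCA and the shares past position 76 thus do not compare mature with precursor tRNAs. Past position 76 ended 742 sequences (13.6%, 12.7 to 14.5), of which 96.5% (94.9 to 97.7) mapped to 1 position, against 19.9% (15.6 to 24.7) of those that ended at 73. T was the last base of 629 of the 742 (84.8%, 82.0 to 87.3), and 564 (76.01%, 72.8 to 79.0) ended in TT and 210 (28.3%) in TTTT. The other placed sequences ended in T in 32.8% (31.4 to 34.1) and in TT in 10.5%. The Gly-GGA sequence printed above is of this kind. Of the 614 sequences from position 56, 372 (60.6%, 56.6 to 64.5) ended past position 76, and 26 ended at 73.

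**Figure D4:**
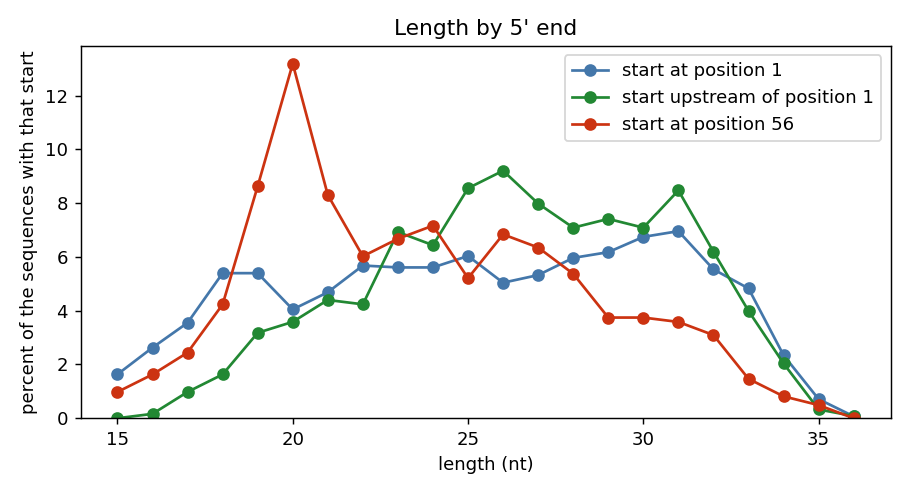
Length in nt (horizontal axis) of sequences that begin at position 1, upstream of it or at position 56, each as percent of the sequences with that start (vertical axis). Sequences from position 56 peak at 20 nt, where 81 of 614 lie, and those from position 1 are spread from 18 to 33 nt. Starts upstream of position 1 needed longer sequences to be placed.

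Of the isotypes of acidic and basic amino acids, 4 were among the 10 largest groups. Glu-GAG, with 1461 sequences, peaked at 18 nt and began with T in 31.6% and C in 30.9%. Asp-GAY peaked at 24 nt and had T first in 32.4%. Both tRNAs begin with T, so T is their position 1 base. Lys-AAG peaked at 28 nt, with C first in 30.1% and G in 28.6%. Lys-AAA peaked at 27 nt, with G first in 30.8% and T in 19.9%. Arg-AGG, with 403 sequences, and Arg-AGA, with 222, peaked at 18 nt, Arg-CGG, with 225, at 19 nt and Arg-CGY, with 219, at 20 and 21 nt. C was first in 32.3% of Arg-AGG, 28.4% of Arg-CGG and 31.5% of Arg-CGY, and G in 34.7% of Arg-AGA. His-CAY had a double peak at 21 and 22 nt and T first in 39.7%.

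Among isotypes of small and polar amino acids, Gly-GGA, with 846 sequences, peaked at 26 nt, while Gly-GGY, with 780, and Gly-GGG, with 403, peaked at 19 nt. G was first in 34.5% of Gly-GGA and 36.2% of Gly-GGG, and T in 30.4% of Gly-GGY. In Gly-GGG 6.95% of sequences mapped to 1 position, the lowest share of the 36 groups, with 2.60% of the 308 under trna88-GlyCCC and 21.1% of the 95 under tRNA-Gly-GGG. Gln-CAG peaked at 19 nt and Gln-CAA, with 343 sequences, at 27 nt, with T first in 34.7% and 32.1%. The 272 sequences under tRNA-Gln-CAA alone peaked at 23 nt, and the 71 under tRNA-Gln-CAA_, most of them mitochondrial, at 27 nt. Asn-AAC peaked at 22 nt with T first in 32.6%, and Ser-AGY, with 263, at 23 nt with T first in 32.3%. Thr-ACY, with 240, peaked at 24 nt, and Thr-ACA, with 221, at 18 and 19 nt, with G first in 31.7% and 30.3%. Cys-TGY peaked at 21 nt and had G first in 33.7% and A in 31.8%. Pro-CCA, with 498, peaked at 18 nt and had T first in 36.5%.

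Groups of hydrophobic amino acids lay mostly between 18 and 25 nt. Initiator Met-i, with 588 sequences, peaked equally at 18, 22 and 26 nt and was the 1 group of at least 200 sequences led by A, with 31.3%. Its tRNA begins with A, and T was first in 15.8%, the lowest share of the 36 groups. Elongator Met, with 396, peaked at 20 and 22 nt with T first in 28.0%. Val-GTG, with 493, peaked at 19 nt with T first in 33.9%, Val-GTA, with 281, at 19 and 20 nt with G first in 32.7%, and Val-GTY, with 281, at 25 nt with G first in 34.9%. Leu-TTG, with 390, peaked at 24 nt with T first in 33.8%, Leu-CTG, with 336, at 20 nt with G first in 33.0%, and Leu-CTY, with 311, at 21 nt with G first in 32.8%. Ile-ATT, with 315, peaked at 19 nt with G first in 31.1%, and Ile-ATA, with 213, at 20 nt with T first in 35.2%. Tyr-TAC, with 313, peaked at 22 nt with T first in 35.1%, Trp-TGG at 20 nt with G first in 29.1% and Phe-TTY at 18 nt with C first in 27.4%. The other 14 groups had between 9 and 186 sequences.

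Among the Ala groups, Ala-GCY, with 744 sequences, peaked at 26 nt, Ala-GCG, with 350, at 25 nt and Ala-GCA, with 209, at 27 nt. T was first in 48.3%, 34.6% and 45.0% of them. The 2 names joined in Ala-GCY differed. Under tRNA-Ala-GCY_, 227 of 317 sequences of 24 to 33 nt (71.6%, 66.3 to 76.5) began with T, close to the 71.2% of sequences outside the tRNA annotation. Under tRNA-Ala-GCY, whose 227 sequences peaked equally at 20 and 26 nt, it was 38 of 109 (34.9%, 26.0 to 44.6), and under all other names together 30.03% (29.02 to 31.05). Outside 24 to 33 nt, tRNA-Ala-GCY_ had T first in 34.5%. Of its sequences of 24 to 33 nt, 91.2% mapped to 1 position, against 42.1% under the other names. A at position 10 of these sequences was found in 29.0% and 15.5%. Of its 517 sequences, 391 (75.6%) had neither the wide A box nor a place by the T loop, against 35.7% under the other names. For tRNA-Ala-GCA, tRNA-Ala-GCY and tRNA-Ala-GCG this share was 61.2%, 40.5% and 28.6%. At 24 to 33 nt, 71.3%, 47.7% and 63.98% of their sequences mapped to 1 position, and 21.3%, 20.2% and 19.4% had A at position 10. T was first in 45.9% of tRNA-Ala-GCA and 36.02% of tRNA-Ala-GCG at these lengths. tRNA-Ala-GCY_ thus had the highest values among the Ala names, but tRNA-Ala-GCA shared part of its difference from the pooled names. The name tRNA-Ala-GCY_ was singled out after its values had been seen.

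**Figure D5:**
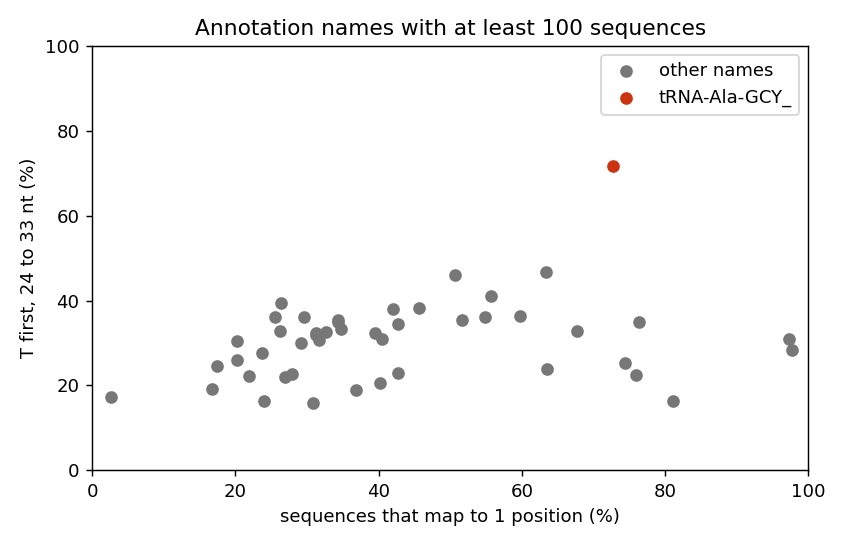
Share of sequences of 24 to 33 nt with T first (vertical axis, percent) against the share of sequences that map to 1 position (horizontal axis, percent) for the 46 annotation names with at least 100 sequences. tRNA-Ala-GCY_ lies at 71.6%, and the next highest name, tRNA-Ile-ATA, at 46.8%.

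Of the 22 mitochondrial tRNAs in GENCODE release M21, 4 had exact matches among the members, 207 sequences in all. Sequences outside the tRNA annotation were not searched. Mitochondrial tRNA genes lie on both strands of a circular genome that is transcribed from both, so antisense RNA of a tRNA gene is made there. The name tRNA-Leu-TTA(m) held 112 sequences, of which 88 matched mt-Tl1 (GRCm38, mitochondrial genome, 2676 to 2750, plus strand) in sense and 1 in antisense. The name tRNA-Ser-TCA(m) held 53, of which 47 matched mt-Ts1 (6870 to 6938, minus strand) in sense and 3 in antisense. The name tRNA-Gln-CAA_ held 71, of which 32 matched mt-Tq (3772 to 3842, minus strand) in sense and 35 in antisense, and 1 matched the antisense strand of its neighbour mt-Ti. All 3 had position 1 as the commonest sense start, with 16, 13 and 15 sequences.

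The longest mt-Tq sequence from position 1 and the longest from the commonest antisense start, base 5 of the reverse complement, show the 2 strands.

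mt-Tq sense: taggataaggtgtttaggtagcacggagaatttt

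mt-Tq antisense: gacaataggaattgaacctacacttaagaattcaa

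Sense sequences of mt-Tq were most often 27 nt long and 19 of 32 began with T. The antisense sequences were most often 22 nt long and none of the 35 began with T. Of the 32 sense sequences 15 shared the start shown, and so did 15 of the 35 antisense sequences. Sequences with the same start share their first base, so these counts rest on few 5' ends. A count of 0 of 35 allows a share of up to 8.57%, taken as 3 counts of the total and for counting error only. This limit treats the 35 as independent, which they are not.

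The isotypes whose 5' fragments are known to be abundant in mature mouse sperm were all present. The list, from general knowledge, has Gly-GCC, Gly-CCC, Glu-CTC, Glu-TTC, Val-CAC, Val-AAC, Lys-CTT, His-GTG and Asp-GTC, here by anticodon. These 9 held 5929 sequences, 33.1% of members. They held 466 of the 1408 sequences from position 1 (33.1%). His-GTG could add none to these because the box does not place it. Of the sequences from position 1 of 30 nt or more the 9 isotypes held 147 of 383 (38.4%). Of these, 32 were from Glu-CTC, 26 from Gly-GCC and 22 from Lys-CTT. Only sequences with the box can be placed at position 1, and the 9 isotypes' share of those was not taken. Neither share from position 1 can therefore be read as an excess or a lack against the 33.1% of members. Glu-TTC had 73 sequences in all, the fewest of the list. Its commonest 5' end was the same as that of Glu-CTC. How sequences shared between groups were named is not known, so this count may depend on the naming. Since variants and not reads are counted, these numbers do not rank fragments by level.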

How the data were processed

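The authors deposited 1 table for the series with a distinct sequence, a map number and a final annotation per line, per the file headers. Per the labels' protocols, total RNA was selected for 19 to 33 nt. How reads were mapped, to which build, how sequences were named and whether a read minimum was set is not given in the sources used here. Of 3 columns, 0 belonged to 1 library.

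Members, lists and alternatives were chosen with earlier results of these data known. Names were grouped by amino acid and codon. Every amino acid group is named, groups of at least 200 sequences are described, and the 10 largest are shown by sequence, except 1 that is not reported here. Positions were counted from the first A box or T loop motif match. Placement was run on simulated tRNAs of 1 length, with both motifs planted at the assumed positions. That run cannot test placement in tRNAs of other lengths. Python 3.11.15, pandas 2.3.3 and SciPy 1.17.1 were used. Gene numbers came from RefSeq (GRCm38.p6) and mitochondrial tRNAs from GENCODE M21.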

Additional observations from a re-analysis of the deposited data

How the results depend on the processing

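Of 28 values under alternatives, 15 lay outside the 95% interval of the reported value or, for the modal length, at another length. The 28 include the values of sequences per 5' end, which have no interval and so could not be counted among the 15. The share of T first was 30.8% at 19 to 33 nt, 32.0% with map number 1, 31.4% with each 5' end counted once, 29.3% without tRNA-Ala-GCY_ and 24.1% under the trna names. The modal length was 26 nt with map number 1 and with each 5' end counted once, and 18 nt under the trna names. The largest amino acid group had 9.78% under tRNA- names, 14.2% (Ala) with each 5' end counted once and 97.8% (Gly) under the trna names. With map number 1, Ala also led, with 11.4%. That value is not among the 15, because only the share and not the group was compared. The share starting at position 1 was 22.7% with map number 1, 22.3% with a longer A box (T, any base, G, any 3 bases, A, any 3 bases, GG), 8.87% with each 5' end counted once and 0% under the trna names, where 1 sequence had the box. There were 3.43 sequences per 5' end by the first 15 nt, 3.76 by 12 nt and 3.10 by 18 nt. The removal of tRNA-Ala-GCY_ and the wide box were alternatives chosen after seeing the data. The causes of these shifts were not tested. No paired analysis was possible because no value belongs to a library, and for the same reason no library could be left out.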
